A study of Arabidopsis thaliana with 119 samples.

Results

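The comparison described here is that of combined stress with drought in Col-0, the reference accession of Arabidopsis thaliana. Its 12 libraries, 10.08% of those in the series, were chosen by their labels: the 6 libraries of Col-0 under treatment W-N- and the 6 of Col-0 under W-N+. Both treatments kept the soil dry and differed in nitrate. Drought plants (W-N+) received 50.85 ± 4.67 ml of nutrient solution with 5 mM nitrate, or 254 µmol of nitrate by mean volume times concentration. Plants under combined stress (W-N-) received 50.7 ± 4.1 ml with 1.5 mM nitrate, or 76.1 µmol. Both groups grew in short days, the last 23 days on the Phenoscope, an automated platform that rotates and irrigates pots, and rosettes were harvested at 31 days. Each group held 3 libraries of experiment code P3ID33 and 3 of P3ID34, whose meaning the labels do not give. The series holds 5 accessions under 4 treatments, the others being a full-water control (W+N+) and nitrogen deficiency at full water (W+N-). Whether the 6 libraries of a group are from different plants is not in the labels. The p-values therefore rest on library-to-library spread, which may be technical.

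Nitrate is both the main nitrogen source of the plant and a signal. It is reduced to ammonium and assimilated into glutamine, and its presence switches on transporters, assimilation enzymes and LBD repressors, which hold down anthocyanin genes. When nitrogen runs short, leaves are known to raise uptake and remobilisation genes, to make anthocyanin, and to lower ribosome and photosynthesis genes, and the phosphate starvation response is known to depend on nitrate supply. In dry soil, abscisic acid closes the stomata and switches on protective genes.

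Total counts of the 12 libraries ranged from 11366062 to 27333346, within 9698708 to 110420763 for the series. Levels are given as CPM, gene counts scaled to a common library total after TMM, a method that sets most genes to no change. The TMM factors were 0.889 to 0.991 in drought libraries and 0.994 to 1.08 in combined-stress libraries and did not overlap. The 4 mesophyll markers summed to 39661 to 57040 CPM under drought and to 34214 to 40652 CPM under combined stress, and 2 of them were called lower. Flower markers summed to at most 0.947 CPM and root markers to at most 1.42 CPM in any library, with EXPA7 at 0 counts in all 12. Guard cell markers summed to 33.7 to 43.4 CPM, and 1 of 4, the anion channel gene SLAC1, was called higher (0.60, SE 0.19). Plastid-encoded genes took 0.0213 to 0.0351% of counts in 5 drought libraries, 0.497% in drought replicate b and 0.0369 to 0.141% under combined stress. The part of these shares in the results was not tested. In bulk RNA, fewer cells of a type and less RNA per cell cannot be told apart.

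Less nitrate in dry soil changed 2254 of 20025 genes tested, or 11.3%, at an adjusted p below 0.05 (edgeR's quasi-likelihood test with Benjamini-Hochberg adjustment, used throughout). Of these, 1103 were higher under combined stress (5.51%) and 1151 lower (5.75%). Most changes were small: 189 genes, or 0.944%, changed at least 2-fold, of which 132 rose and 57 fell. The median log2 fold change of all genes was 0.02. Large rises included nitrogen starvation genes and an anthocyanin regulator. Large falls included a nitrate-responsive repressor and defence genes, and ribosomal protein and Calvin cycle genes fell by small amounts in many members. With each code fitted alone, 905 genes were called in P3ID33 and 496 in P3ID34. Of 904 genes called in P3ID33 and tested in P3ID34, 874 had the same sign there, and 483 of the 496 called in P3ID34 had the same sign in P3ID33. Over all genes, 157 were called in both codes. Of the 97 called genes that the naming rule picked, mostly for a large change or a low p, 31 were called in each code alone.

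**Figure D1:**
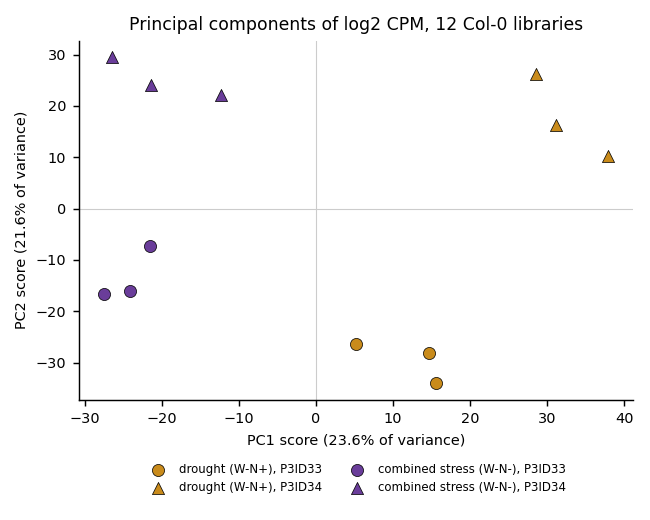
Scores of the 12 Col-0 libraries on the first and second principal components of log2 CPM, coloured by treatment and shaped by experiment code. PC1 (23.6% of the variance) separates the treatments and PC2 (21.6%) the codes.

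Among genes that averaged 5 CPM or more, the largest rise was that of AT4G01390, a TRAF-like family protein. It was at 0.111, 0.500 and 0.738 CPM in drought libraries (lowest, median and highest of 6, the order used throughout) and at 8.58, 10.3 and 12.6 CPM under combined stress. The groups stood far apart, with a log2 fold change of 4.65 (SE 0.30, adjusted p = 6.0e-25). NUDT24, a nudix hydrolase, was at 16.8, 18.1 and 19.9 CPM under drought and at 90.9, 104 and 133 CPM under combined stress. Every combined-stress library lay above every drought library (log2 fold change 2.59, SE 0.22, adjusted p = 1.9e-16). AT1G64360, an uncharacterized protein, was at 5.45, 9.07 and 14.9 CPM and at 21.9, 31.1 and 38.5 CPM, again without overlap (log2 fold change 1.77, SE 0.21, adjusted p = 8.4e-10). UMAMIT36, of a family that includes amino acid exporters, was at 13.1, 16.7 and 26.2 CPM and at 40.6, 58.1 and 74.2 CPM, also without overlap (log2 fold change 1.69, SE 0.22, adjusted p = 1.4e-08). These 4 genes were called in each code alone.

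**Figure D2:**
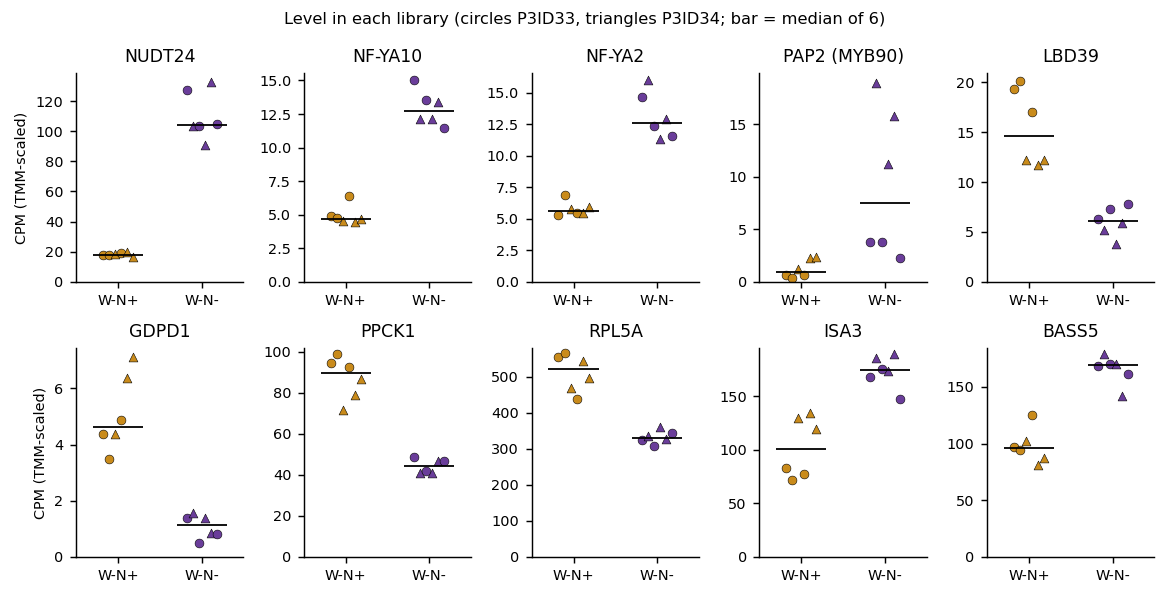
Level (TMM-scaled CPM, linear axes from 0) of 10 genes in each of the 12 libraries under drought (W-N+) and combined stress (W-N-), with circles for P3ID33, triangles for P3ID34 and a bar at the median of 6. NUDT24 lies between 16.8 and 19.9 CPM under drought and between 90.9 and 133 CPM under combined stress, and PAP2 (MYB90) is higher in P3ID34 than in P3ID33 under combined stress.

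Transcription factors were among the rises. NF-YA10 and NF-YA2 are DNA-binding subunits of NF-Y, the factor that binds the CCAAT box. NF-YA10 was at 4.45, 4.71 and 6.43 CPM and at 11.5, 12.8 and 15.01 CPM (log2 fold change 1.38, SE 0.21, adjusted p = 1.7e-06). NF-YA2 was at 5.31, 5.64 and 6.89 CPM and at 11.3, 12.7 and 16.03 CPM (log2 fold change 1.18, SE 0.14, adjusted p = 3.7e-10). Neither gene's groups overlapped. AT4G38340, of the RWP-RK family, to which the NLP nitrate regulators belong, was at 2.94, 5.26 and 8.44 CPM and at 7.90, 11.2 and 19.8 CPM, with overlapping ranges (log2 fold change 1.25, SE 0.19, adjusted p = 8.2e-07). Other large rises were those of AT4G08570, a heavy metal transport/detoxification protein (1.78, SE 0.33), AT1G34060, a pyridoxal phosphate-dependent transferase (1.55, SE 0.21), and AT3G57680, of peptidase family S41 (1.39, SE 0.18), all on the log2 scale. The cellulase family gene GH9B13 (1.36, SE 0.41) and DR4 (1.34, SE 0.33) were less secure: without combined-stress replicate b their adjusted p was 0.10 and 0.085, and the log2 fold change of DR4 was 0.88.

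Nitrogen starvation genes rose where they changed. Of 16 tested, 6 were called higher and none lower, with a median log2 fold change of 0.17 against 0.02 for all genes. Here and for each list below, the shares over all genes tested were 5.51% called higher and 5.75% called lower. The lists were chosen with earlier results of these data known, so their counts are not independent evidence. AT2G47880, a glutaredoxin, was at 0.301, 0.607 and 0.823 CPM and at 3.09, 3.81 and 6.21 CPM, with no overlap (log2 fold change 2.69, SE 0.51, adjusted p = 9.2e-05). NIT4, a nitrilase, was at 24.3, 28.2 and 29.3 CPM and at 51.1, 60.1 and 66.0 CPM (log2 fold change 1.099, SE 0.18, adjusted p = 6.0e-06). DUR3, a urea transporter, was at 6.17, 7.22 and 8.40 CPM and at 10.4, 12.5 and 14.6 CPM (log2 fold change 0.79, SE 0.18, adjusted p = 0.0015). Neither NIT4 nor DUR3 had overlapping groups. NPF2.13, which moves nitrate out of older leaves, was at 46.1, 51.2 and 63.2 CPM and at 60.8, 71.3 and 87.5 CPM, with overlap (log2 fold change 0.50, SE 0.11, adjusted p = 0.0011). AT3G62960, a thioredoxin superfamily protein (1.97, SE 0.42), and NUDT24 made up the 6. NRT2.5, a high-affinity nitrate transporter, had no count in any drought library and lay between 0.0455 and 0.203 CPM under combined stress, and was not called (adjusted p = 0.12).

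Nitrate-responsive genes fell more often than they rose. Of 26 tested, 5 were called lower and 1 higher, with a median log2 fold change of -0.07. The repressor LBD39 was at 11.7, 14.6 and 20.1 CPM under drought and at 3.80, 6.11 and 7.78 CPM under combined stress. Its groups did not overlap and it was called in each code alone (log2 fold change -1.35, SE 0.26, adjusted p = 1.5e-04). Its relative LBD38 was at 9.08, 12.7 and 13.3 CPM and at 4.31, 6.65 and 8.17 CPM, without overlap (-0.85, SE 0.23, adjusted p = 0.0080), while LBD37 was not called (-0.44, SE 0.23, adjusted p = 0.22). CLCA, which loads nitrate into the vacuole, was at 31.4, 38.5 and 46.3 CPM and at 19.999, 23.0 and 32.5 CPM, with overlap (-0.67, SE 0.17, adjusted p = 0.0035). NPF7.3, which loads nitrate into the root xylem, was at 31.1, 35.3 and 36.5 CPM and at 20.1, 24.7 and 26.7 CPM, without overlap (-0.52, SE 0.12, adjusted p = 0.0012). The fifth fall was that of AT1G25550, a myb-like factor (-0.61, SE 0.20). The 1 rise was that of CIPK23, a kinase that acts on nitrate and potassium transporters, at 15.3, 16.4 and 18.3 CPM and at 19.2, 21.5 and 24.2 CPM (0.41, SE 0.08, adjusted p = 1.6e-04). The nitrate reductase gene NIA1 was at 117, 131 and 153 CPM and at 85.4, 125 and 177 CPM and was not called (-0.08, SE 0.25), nor was NIA2 (-0.24, SE 0.19).

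Ammonium assimilation and amino acid turnover changed in a few genes. Of 15 assimilation genes, 3 were called higher and 1 lower. GLN2, the plastid glutamine synthetase, was the fall, at 2048, 2307 and 2503 CPM and at 1598, 1936 and 2116 CPM (log2 fold change -0.26, SE 0.07, adjusted p = 0.0043). The cytosolic enzyme GLN1;1 was at 43.6, 62.4 and 77.2 CPM and at 61.6, 94.3 and 128 CPM (0.62, SE 0.13, adjusted p = 4.5e-04), and glutamate dehydrogenase GDH1 rose by 0.43 (SE 0.11). Ranges of these 3 genes overlapped. Of 17 amino acid breakdown genes, 4 were called higher and 1, AT5G38710, lower (log2 fold change -1.16, adjusted p = 0.025). BCAT2, a branched-chain aminotransferase, was at 0.444, 0.839 and 1.03 CPM and at 1.23, 1.99 and 4.74 CPM (1.56, SE 0.34, adjusted p = 8.3e-04), and PRODH1, proline dehydrogenase, was at 2.36, 2.94 and 3.83 CPM and at 4.00, 6.10 and 7.60 CPM (0.95, SE 0.23, adjusted p = 0.0032). Neither gene's groups overlapped. AT1G21400, a subunit of branched-chain ketoacid dehydrogenase, rose by 0.74 (SE 0.13). Of 10 amino acid transporters, 3 were called higher and none lower, among them the permease AAP4 (0.45, SE 0.12). The calls of GLN1;4, AT5G38710, PROT2 and AAP6 ended in 9, 4, 5 and 6 of 12 omissions of 1 library, with adjusted p of 0.11 and 0.080 without combined-stress replicate b, 0.079 without drought replicate a and 0.099 without drought replicate c.

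Anthocyanin genes that passed the test all rose: 3 of 14 regulators and 10 of 26 flavonoid enzymes were called higher and none lower. The activator PAP2 (MYB90, a MYB factor and not a phosphatase) was at 0.389, 0.928 and 2.3996 CPM under drought and at 2.25, 7.53 and 18.9 CPM under combined stress (log2 fold change 2.82, SE 0.36, adjusted p = 7.8e-09). Its ranges overlapped over all 12 libraries but not within a code. In P3ID33 drought libraries reached 0.653 CPM and combined-stress libraries began at 2.25 CPM, and in P3ID34 these values were 2.3996 and 11.2 CPM. TT8, a bHLH partner of such MYB factors, was at 17.4, 20.6 and 29.6 CPM and at 26.8, 36.7 and 44.4 CPM (0.74, SE 0.17, adjusted p = 0.0010). MYB114 was the third regulator called. PAP1, a close relative of PAP2, was at 65.1, 73.1 and 104 CPM and at 95.5, 108 and 119.7 CPM and was not called (0.49, SE 0.23, adjusted p = 0.18). The median log2 fold change of the flavonoid enzymes was 0.35. DFR, dihydroflavonol reductase, was at 199.7, 246 and 384 CPM and at 327, 492 and 667 CPM (0.87, SE 0.19, adjusted p = 9.6e-04). F3'H, a cytochrome P450 that hydroxylates flavonoids, was at 74.4, 105 and 147 CPM and at 126, 202 and 318 CPM (0.89, SE 0.17, adjusted p = 1.7e-04). The acyltransferases AT1G03940 and AT1G03495 rose by 0.80 (SE 0.18) and 0.78 (SE 0.18), and LDOX and GSTF12 by 0.64 (SE 0.18) and 0.70 (SE 0.21). Ranges of these 6 enzymes overlapped over all 12 libraries, but those of DFR, F3'H, AT1G03940 and AT1G03495 did not within either code. Throughout, overlap was judged over all 12 libraries together unless a code is named. Most genes were named for low p or large change, which favours groups apart. The share without overlap over all genes was not counted. Chalcone synthase, CHS, which starts the pathway, was not called (0.33, SE 0.14, adjusted p = 0.11).

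Phosphate starvation genes fell where they changed. Of 34 tested, 8 were called lower and none higher, with a median log2 fold change of -0.19. GDPD1, a glycerophosphodiester phosphodiesterase, was at 3.50, 4.62 and 7.11 CPM and at 0.501, 1.11 and 1.55 CPM (log2 fold change -2.23, SE 0.28, adjusted p = 9.0e-09). PPCK1, the kinase of phosphoenolpyruvate carboxylase, was at 71.7, 89.5 and 98.9 CPM and at 40.7, 44.5 and 48.9 CPM (-0.98, SE 0.14, adjusted p = 3.4e-07). The purple acid phosphatase PAP17 was at 26.5, 34.8 and 38.5 CPM and at 14.2, 19.1 and 20.8 CPM (-0.85, SE 0.16, adjusted p = 1.4e-04). None of these 3 genes had overlapping groups. The others were PHO1;H1, a relative of a phosphate exporter (-0.87, SE 0.22), SPX1, a sensor (-0.56, SE 0.20, adjusted p = 0.046), the sulfolipid enzyme SQD1 (-0.41, SE 0.10), PHF1, which helps phosphate transporters leave the endoplasmic reticulum (-0.35, SE 0.09), and the phosphatase PAP10 (-0.29, SE 0.06). PHR1, the regulator of the response, was at 53.4, 60.3 and 67.2 CPM and at 57.4, 62.4 and 69.2 CPM and was not called (0.03, SE 0.09).

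PHR1 binds the P1BS element, GNATATNC. In the 250 bases before the annotated start, on either strand, P1BS occurred in 5.46% of 27443 promoters of the TAIR10.1 assembly, in 5.31% of those of genes called higher and in 5.74% of those of genes called lower. It occurred in 9 of 34 phosphate starvation genes tested and in 2 of the 8 called. The promoter of GDPD1 is shown for its 2 matches, from the RefSeq TAIR10.1 genome, 5′ to 3′ along the gene's strand and ending at the base before its start, with P1BS in capitals.
GDPD1 (chr3:350011-350260, minus strand): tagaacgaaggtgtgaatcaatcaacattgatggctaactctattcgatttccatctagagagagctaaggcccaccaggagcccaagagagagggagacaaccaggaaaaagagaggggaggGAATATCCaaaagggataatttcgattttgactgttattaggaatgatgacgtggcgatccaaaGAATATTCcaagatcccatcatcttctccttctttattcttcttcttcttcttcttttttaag
A match describes the letters, not binding.

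Most of the ribosomal protein genes listed fell. Of 22 cytosolic ribosomal proteins tested, 19 were called lower and none higher, with a median log2 fold change of -0.54 and a range of -0.79 to -0.36. RPL5A, of the large subunit, was at 439.6, 521 and 567 CPM and at 308, 331 and 359.6 CPM (log2 fold change -0.62, SE 0.11, adjusted p = 2.1e-05). Its copy RPL5B was at 349, 409.96 and 431 CPM and at 248, 275 and 291 CPM (-0.56, SE 0.10, adjusted p = 2.6e-05). RPL3B, also of the large subunit, was at 18.9, 20.8 and 25.5 CPM and at 11.2, 12.5 and 13.6 CPM (-0.79, SE 0.13, adjusted p = 1.5e-05). None of these 3 genes had overlapping groups, and each was called in each code alone. Reads of near-identical copies cannot be assigned with certainty. A wider list was added after values were seen. It took nuclear protein-coding genes annotated as ribosomal proteins and left out product names pointing to organelles, kinases or methylation. Of 293 tested, 120 were called lower and 2 higher, with a median of -0.42.

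Site II elements, TGGGCC or TGGGCT on either strand, are known from ribosomal protein promoters and were searched for after values were seen. The promoters of these 3 genes are shown because they hold matches, as the called listed genes of lowest adjusted p that do. AT5G02870, a listed ribosomal protein gene with the same adjusted p as RPL5B (2.6e-05), held none. Of the listed genes, 15 of 22 tested and 13 of the 19 called held site II. Capitals mark the matches, in TAIR10.1 from RefSeq as above.
RPL3B (chr1:22723153-22723402, minus strand): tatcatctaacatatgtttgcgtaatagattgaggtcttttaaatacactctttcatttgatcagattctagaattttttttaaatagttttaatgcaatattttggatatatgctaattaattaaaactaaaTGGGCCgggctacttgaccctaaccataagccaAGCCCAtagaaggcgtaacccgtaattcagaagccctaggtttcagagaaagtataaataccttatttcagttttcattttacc
RPL5A (chr3:9271466-9271715, minus strand): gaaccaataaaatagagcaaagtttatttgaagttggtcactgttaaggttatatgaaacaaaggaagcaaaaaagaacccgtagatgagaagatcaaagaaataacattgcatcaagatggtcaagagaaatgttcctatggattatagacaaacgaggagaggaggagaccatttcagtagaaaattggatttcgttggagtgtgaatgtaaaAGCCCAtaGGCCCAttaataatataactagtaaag
RPL5B (chr5:15903029-15903278, plus strand): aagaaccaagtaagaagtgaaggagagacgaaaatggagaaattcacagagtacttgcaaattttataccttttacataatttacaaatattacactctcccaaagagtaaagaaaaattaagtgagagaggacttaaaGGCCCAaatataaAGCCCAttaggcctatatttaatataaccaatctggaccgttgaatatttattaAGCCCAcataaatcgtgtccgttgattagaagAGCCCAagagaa
Site II occurred in 19.2% of all promoters of this length, in 18.8% for genes called higher and in 35.7% for genes called lower. In the wider ribosomal protein list it occurred in 58.0% for the 293 genes tested and in 65.0% for the 120 called lower. Among all genes tested its share was 22.4%. The telo box, AAACCCTA on either strand, was also chosen after values were seen. It occurred in 4.49% of all promoters, in 3.26% for genes called higher and in 8.17% for genes called lower. In the wider list it occurred in 14.7% for the genes tested and in 18.3% for those called lower, against 3.61% of all genes tested.

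Photosynthetic genes were lower where they changed. Of 21 Calvin cycle genes, 12 were called lower and none higher, with a median log2 fold change of -0.34. RBCS1B, a small subunit gene of Rubisco, was at 1126, 1498 and 1987 CPM and at 725, 753 and 835 CPM (-1.02, SE 0.25, adjusted p = 0.0029), and HCEF1, a fructose bisphosphatase, was at 1041, 1160.2 and 1235 CPM and at 763, 923 and 1038 CPM (-0.34, SE 0.07, adjusted p = 6.5e-04). Neither gene's groups overlapped, though reads of RBCS copies cannot be assigned with certainty. RBCS1A was at 16971, 22869.5 and 27698 CPM and at 14808, 16193 and 18205 CPM and was not called (-0.46, SE 0.19, adjusted p = 0.12). Rubisco activase RCA (-0.36, SE 0.08) and the dehydrogenase subunit GAPB (-0.36, SE 0.08) were called lower with overlapping ranges. HCEF1 and GAPB changed by -0.14 and -0.17 in P3ID33 and by -0.53 and -0.54 in P3ID34. RBCS1B changed more in P3ID33 (-1.23, against -0.80 in P3ID34), and RCA by -0.33 and -0.38. None of RBCS1B, HCEF1, RCA and GAPB was called in each code alone. Of 36 light harvesting and photosystem genes, 4 were called lower and none higher, with a median of -0.16. Among all genes 11.3% were called, 5.75% lower and 5.51% higher. These genes were called about as often as genes in general when both directions are counted, but their calls were all lower. Of the 36, 3 had a positive fitted change, against 10673 of the 20025 genes tested. LHCB4.1, an antenna protein of photosystem II, was at 4829.9, 5555 and 5965 CPM and at 3902, 4089 and 4439.8 CPM, without overlap (-0.40, SE 0.10, adjusted p = 0.0055). The calls of PSBO2, PSBQ1 and PSAH1 were less secure, with adjusted p of 0.072 without drought replicate b, 0.051 without combined-stress replicate c and 0.14 without combined-stress replicate b. The mesophyll marker sum above, which holds RBCS1A and RCA, moved the same way, and its part in these falls was not tested.

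**Figure D3:**
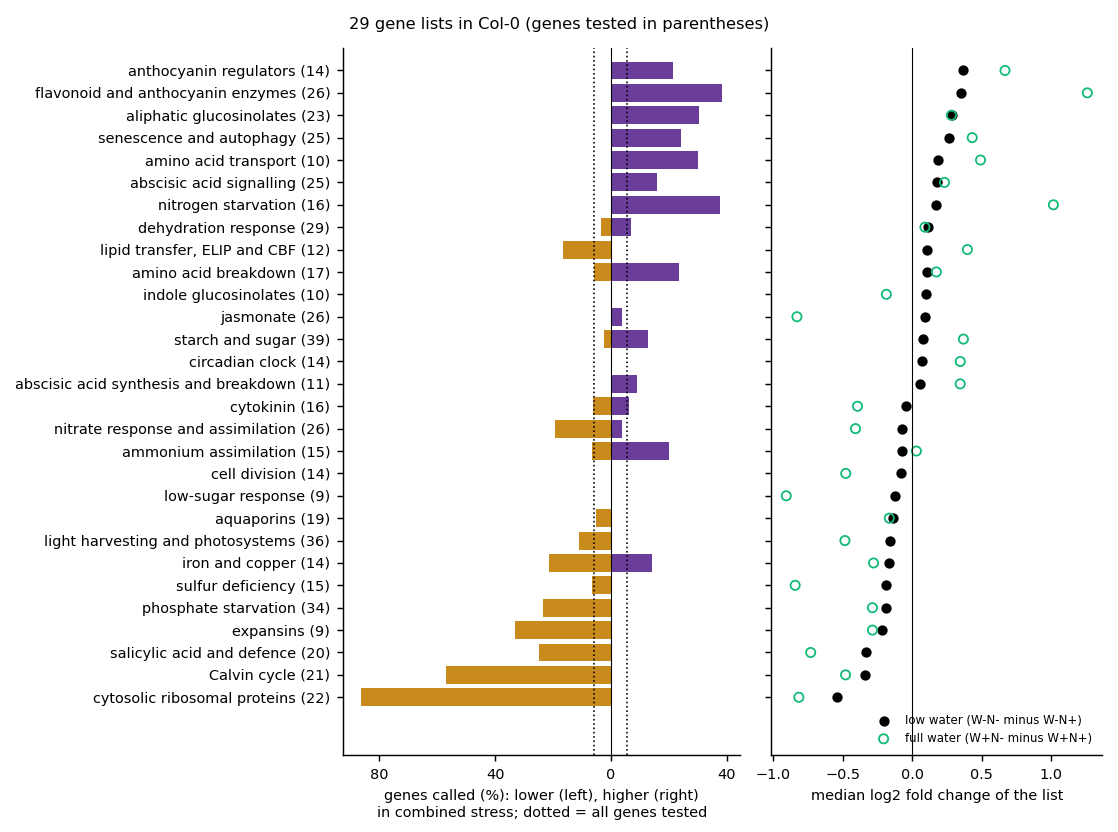
Left, percentage of each of 29 gene lists called lower or higher under combined stress, with dotted lines at 5.75% and 5.51% for all genes tested, and right, median log2 fold change of each list at low water (filled) and full water (open). Cytosolic ribosomal proteins (median -0.54) and Calvin cycle genes (-0.34) lie at the bottom, and anthocyanin regulators (0.37) and flavonoid enzymes (0.35) at the top.

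A few starch and senescence genes rose. Of 39 starch and sugar genes, 5 were called higher and 1 lower, with a median log2 fold change of 0.08. ISA3, a starch debranching enzyme, was at 71.2, 101 and 134 CPM and at 148, 174 and 189 CPM (0.82, SE 0.16, adjusted p = 1.2e-04). SEX4, a glucan phosphatase, was at 115, 161 and 184 CPM and at 219.96, 225 and 230.3 CPM (0.55, SE 0.13, adjusted p = 0.0013). The maltose exporter MEX1 was at 32.5, 34.7 and 37.2 CPM and at 39.8, 47.0 and 52.4 CPM (0.41, SE 0.10, adjusted p = 0.0026). None of these 3 genes had overlapping groups. The sugar exporter SWEET12 (0.68, SE 0.17) and APL4 (0.54, SE 0.18), of starch synthesis, were called higher and PGM1 (-0.28, SE 0.10) lower, but SWEET12 had an adjusted p of 0.10 without the code in the model. Of 25 senescence and autophagy genes, 6 were called higher and none lower, with a median of 0.27. These were the chlorophyll breakdown genes NYC1 (0.34, SE 0.07, adjusted p = 3.3e-04), NYE1 (0.42, SE 0.13), NYE2 (0.67, SE 0.22) and PPH (0.32, SE 0.10), the senescence factor NAP (0.65, SE 0.22) and the autophagy gene ATG8C (0.54, SE 0.14). The calls of NYE1 and PPH ended without drought replicate c and without drought replicate e (adjusted p = 0.070 and 0.083). SAG12, a late senescence marker, was at 0, 0 and 18.1 CPM and at 0, 0.172 and 1.62 CPM and was not called.

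Aliphatic glucosinolates are sulfur-rich defence compounds made from methionine. Of 23 genes tested, 7 were called higher and none lower, with a median log2 fold change of 0.29. BASS5, a plastid transporter of their keto acid precursors, was at 80.8, 95.7 and 126 CPM and at 142, 169 and 179 CPM (0.76, SE 0.16, adjusted p = 5.5e-04). BCAT4, which starts methionine chain elongation, was at 163, 195 and 240.4 CPM and at 249.7, 308 and 345 CPM (0.59, SE 0.12, adjusted p = 3.9e-04). CYP79F1, which makes the aldoxime of the core pathway, was at 463, 495 and 569 CPM and at 587, 646 and 739.7 CPM (0.37, SE 0.09, adjusted p = 0.0031). None of these 3 genes had overlapping groups. The others were CYP79F2 (0.39, SE 0.09), MAM3 (0.37, SE 0.11), IMD1 (0.34, SE 0.11) and the regulator MYB76 (0.50, SE 0.16). Reads of CYP79F1 and CYP79F2, and of MAM3 and its copy MAM1, cannot be assigned with certainty. Of 10 indole glucosinolate genes, none was called by edgeR, DESeq2 or limma voom, and 1 had an unadjusted p below 0.05.

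Dehydration genes were called about as often as genes in general. Of 29 tested, 2 were called higher and 1 lower, against 5.51% and 5.75% of all genes, with a median log2 fold change of 0.11. GOLS2, galactinol synthase, was at 26.6, 33.9 and 51.9 CPM and at 34.8, 64.2 and 108 CPM, with overlap (0.86, SE 0.23, adjusted p = 0.0080). RD20, a caleosin (0.54, SE 0.18), lost its call in 8 of 12 omissions of 1 library, with an adjusted p of 0.10 without combined-stress replicate e. P5CS2, of proline synthesis, was the gene called lower (-0.42, SE 0.12), and its adjusted p was 0.067 without combined-stress replicate b. RD29B was at 0.656, 2.44 and 13.3 CPM and at 0.497, 1.98 and 4.22 CPM and was not called. Of 25 abscisic acid signalling genes, 4 were called higher and none lower. The receptor PYL9 was at 8.77, 11.1 and 13.7 CPM and at 17.7, 20.3 and 21.9 CPM, with no overlap and a call in each code alone (0.85, SE 0.14, adjusted p = 3.8e-06). The phosphatase AHG3 (0.35, SE 0.10), the factor ABF3 (0.39, SE 0.11) and the kinase SNRK2.3 (0.35, SE 0.10) had overlapping groups. With the code left out of the model their adjusted p was 0.30, 0.20 and 0.052. Without combined-stress replicate e it was 0.066 for AHG3 and 0.055 for ABF3, and without drought replicate a it was 0.073 for SNRK2.3.

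The core of the abscisic acid response element, ACGTG, was searched for on both strands, with overlapping matches counted once. The G-box CACGTG holds it on both strands. It occurred in 22.9% of all promoters, in 27.8% for genes called higher, in 230 of 1150 genes called lower and in 16 of 29 dehydration genes. AHG3 held 4 matches, and its promoter in TAIR10.1 is shown for them, in capitals.
AHG3 (chr3:3585851-3586100, minus strand): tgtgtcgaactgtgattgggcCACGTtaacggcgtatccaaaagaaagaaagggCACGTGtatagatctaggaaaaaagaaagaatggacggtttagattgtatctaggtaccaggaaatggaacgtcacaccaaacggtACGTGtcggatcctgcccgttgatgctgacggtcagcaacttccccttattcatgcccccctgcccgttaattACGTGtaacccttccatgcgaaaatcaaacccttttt

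Salicylic acid and defence genes were lower where they changed. Of 20 tested, 5 were called lower and none higher, with a median log2 fold change of -0.33. PR5 was at 24.5, 33.2 and 41.6 CPM and at 13.5, 15.5 and 18.9 CPM, without overlap (-1.05, SE 0.29, adjusted p = 0.0095). The glucanase PR2 was at 21.7, 28.3 and 41.7 CPM and at 8.69, 12.6 and 22.3 CPM, with overlap (-1.12, SE 0.32, adjusted p = 0.011). PR1 was at 0.301, 2.19 and 6.55 CPM and at 0.0455, 0.260 and 0.431 CPM, and its call ended without drought replicate e (adjusted p = 0.074) and in limma voom (adjusted p = 0.23). WRKY38 fell by 1.71 on the log2 scale (SE 0.50). FMO1, which makes a systemic defence signal, lay between 0 and 1.09 CPM under drought and had a count in 1 combined-stress library. Among 26 jasmonate genes 1 was called, AOC4 (0.33, SE 0.10), with an adjusted p of 0.087 without combined-stress replicate e.

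Growth and metal genes gave a few further calls. Of 9 expansins, which loosen the cell wall, 3 were called lower. EXPA10 was at 52.1, 62.7 and 75.4 CPM and at 39.7, 44.8 and 51.8 CPM, without overlap (log2 fold change -0.49, SE 0.10, adjusted p = 2.8e-04). EXPA1 (-0.53, SE 0.15) and EXPA8 (-0.91, SE 0.30) were the others, with an adjusted p of 0.11 for EXPA8 without drought replicate b. Of 14 iron and copper genes, 2 were called higher and 3 lower. The iron store FER1 was at 107, 157 and 219 CPM and at 156, 263 and 346 CPM, with overlap (0.72, SE 0.16, adjusted p = 8.8e-04). OPT3, which moves iron in the phloem, was at 137, 154 and 166 CPM and at 100.04, 105 and 123 CPM, without overlap (-0.48, SE 0.12, adjusted p = 0.0028). The superoxide dismutase CSD2 rose (0.47, SE 0.16), and AT2G30766 (-1.58, SE 0.30) and FRO3 (-0.54, SE 0.16) fell. Without the code in the model the adjusted p was 0.18 for FRO3 and 0.092 for EXPA1. ELIP2, an early light-induced protein, was at 28.2, 72.7 and 134 CPM and at 16.5, 29.97 and 60.9 CPM, with overlap (-1.15, SE 0.26, adjusted p = 0.0011).

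The remaining lists held at most 2 calls each. ARR16 (0.87, SE 0.26) rose and CKX4 (-0.75, SE 0.21), which degrades cytokinin, fell among 16 cytokinin genes. CYP707A2 (0.46, SE 0.16), which breaks down abscisic acid, rose among 11 genes of its synthesis and breakdown. GGCT2;1 (-0.63, SE 0.19) fell among 15 sulfur deficiency genes, PIP2;1 (-0.27, SE 0.08) among 19 aquaporins, and LTP1 (-0.36, SE 0.12) beside ELIP2 among 12 lipid transfer, ELIP and CBF genes. The last 4 were less secure: the adjusted p was 0.12 for CYP707A2 without drought replicate f, 0.075 for GGCT2;1 without combined-stress replicate a, 0.061 for PIP2;1 without drought replicate b and 0.12 for LTP1 without combined-stress replicate c. The call of LTP1 also ended with RLE size factors, with no filter, in a fit of the Col-0 libraries alone and with a replicate block (adjusted p up to 0.056). None of 14 cell division, 14 clock or 9 low-sugar genes was called by edgeR, DESeq2 or limma voom, and 2, 1 and 2 of them had an unadjusted p below 0.05.

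Among the large falls outside the lists, AT2G40400, a DUF399 family protein, was at 105, 117 and 126 CPM and at 29.3, 41.6 and 53.4 CPM (log2 fold change -1.52, SE 0.17, adjusted p = 1.4e-10). AT2G20670, a putative sugar phosphate exchanger, was at 16.6, 19.2 and 23.6 CPM and at 6.73, 8.30 and 10.0 CPM (-1.22, SE 0.23, adjusted p = 1.3e-04). AT1G78850, a mannose-binding lectin, was at 73.3, 80.5 and 93.6 CPM and at 27.9, 37.2 and 47.6 CPM (-1.09, SE 0.20, adjusted p = 7.1e-05). Groups of all 3 were apart, and all 3 were called in each code alone. AT1G49500 (-1.41, SE 0.28) and AT3G14395 (-1.31, SE 0.28) also fell without overlap. The largest fitted fall at this level, that of AT5G36790, a haloacid dehalogenase-like hydrolase (-2.36, SE 0.55, adjusted p = 0.0017), lay in 2 libraries. Drought replicates b and c were at 58.7 and 66.2 CPM, and the other 10 libraries between 2.98 and 7.90 CPM. Its log2 fold change was 0.00 in P3ID33, its adjusted p was 0.28 in limma voom, and its reads may be shared with a near-identical copy. PCR1 (-1.25, SE 0.43) lost its call in 9 of 12 omissions of 1 library, with an adjusted p of 0.14 without drought replicate e.

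Col-0 at full water gives the nitrate response without drought, from 12 other libraries. There nitrate went from 5 mM to 0.5 mM in 160.45 ± 7.96 and 161.93 ± 11.07 ml, a larger step than at low water, and 8506 of 20025 genes were called. Of the 2254 genes called at low water, 2161 had the same sign at full water and 1829 were called there. Across these genes, which are not independent and were selected at low water, Pearson's r of the log2 fold changes was 0.828. Among the 2161 with the same sign, the median ratio of the low-water to the full-water change was 0.728. The difference of the effects was called in 1495 genes (7.47%). In 997 of them the low-water change had the same sign and was smaller, in 3 it was larger and in 495 the signs were opposite. Signs were taken from the fitted changes, whether or not either was called. Without replicate f of the full-water control, whose TMM factor was 0.681, the count was 1166. Nitrate dose and water differ together between these pairs, so their effects cannot be told apart.

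**Figure D4:**
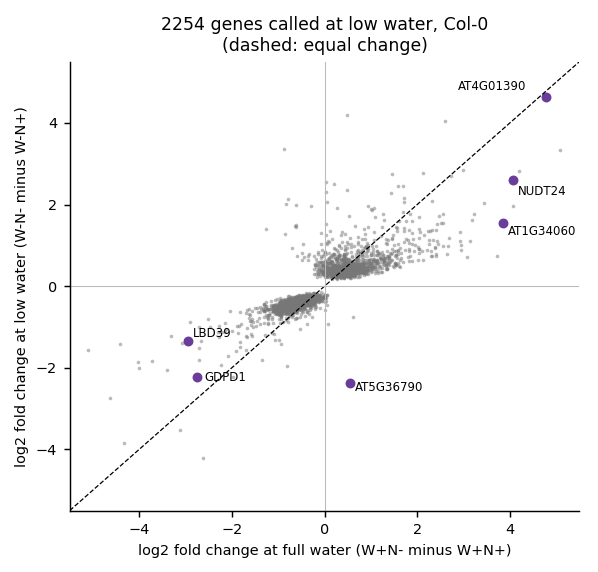
Log2 fold change at low water (W-N- minus W-N+) against that at full water (W+N- minus W+N+) for the 2254 genes called at low water in Col-0, with a dashed line of equal change. The median ratio of low-water to full-water change is 0.728 among the 2161 genes with the same sign in both, and AT4G01390 lies near the line, at 4.65 and 4.79.

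Genes with the lowest p in this test mostly rose less in dry soil. BOR5, of the borate transporter family, had medians of 9.34 and 15.8 CPM in dry soil (W-N+ and W-N-) and of 8.04 and 94.2 CPM at full water (W+N+ and W+N-). The difference of its log2 fold changes was -2.99 (SE 0.34, adjusted p = 3.4e-10). GAMMA-VPE, a vacuolar protease, had medians of 189 and 378 CPM in dry soil and of 191 and 1087 CPM at full water (difference -1.57, SE 0.18, adjusted p = 3.4e-10). AT1G34060 (-2.31, SE 0.29), NF-YA2 (-1.50, SE 0.19), F3'H (-2.07, SE 0.25), AT1G03495 (-1.85, SE 0.26) and AT1G15410, of the aspartate-glutamate racemase family (-1.12, SE 0.15), differed in the same direction. Of the 26 flavonoid enzymes, 17 differed between the water supplies, and their median log2 fold change was 0.35 at low and 1.26 at full water. LTP3, a lipid transfer protein, had medians of 45.1 and 40.2 CPM in dry soil and of 31.0 and 4.25 CPM at full water (difference 3.14, SE 0.44, adjusted p = 3.0e-07). Its reads and those of LTP4 cannot be assigned with certainty.

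The same pair of treatments, with 12 libraries in each of the other 4 accessions, gave 4942 called genes in Bur-0, 1672 in Cvi-0, 1184 in Sha and 5738 in Tsu-0, against 2254 in Col-0. A test of the Col-0 effect against the mean effect of the others called 277 genes (1.38%). In 80 of them the Col-0 change had the same sign and was smaller, in 16 it was larger and in 181 the signs were opposite. These are signs of fitted changes, called or not, so an opposite sign can come from a change near none. The count was 22 in P3ID33 alone and 115 in P3ID34 alone, and it fell to 128 without combined-stress replicate b, 132 without combined-stress replicate f, 131 without drought replicate d, 161 without drought replicate c, 174 without combined-stress replicate e and 145 without drought replicate e or without combined-stress replicate d.

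Of the 34 phosphate starvation genes, 10 differed in this test, all with a smaller fall or no fall in Col-0. GDPD1 changed by -2.23 in Col-0 and by -4.74 in Bur-0, -3.54 in Cvi-0, -3.57 in Sha and -5.81 in Tsu-0 (difference 2.19, SE 0.33, adjusted p = 6.8e-06). PAP17 changed by -0.85 in Col-0 and by -3.39 in Bur-0, -1.40 in Cvi-0, -1.65 in Sha and -2.81 in Tsu-0 (difference 1.46, SE 0.19, adjusted p = 3.2e-08). The sulfolipid synthase SQD2 was at 71.8, 80.3 and 88.0 CPM and at 66.6, 70.8 and 75.4 CPM in Col-0 and was not called there (-0.17, SE 0.08), while its mean change in the others was -0.89 (difference 0.72, SE 0.09, adjusted p = 1.5e-08). SPX1 (1.39, SE 0.22) and SQD1 (0.69, SE 0.11) differed in the same direction, and outside the list G3Pp1, a putative glycerol-3-phosphate transporter, did so too (0.84, SE 0.12). The median of the list was -0.19 in Col-0, -0.34 in Bur-0, -0.57 in Cvi-0, -0.23 in Sha and -1.32 in Tsu-0.

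**Figure D5:**
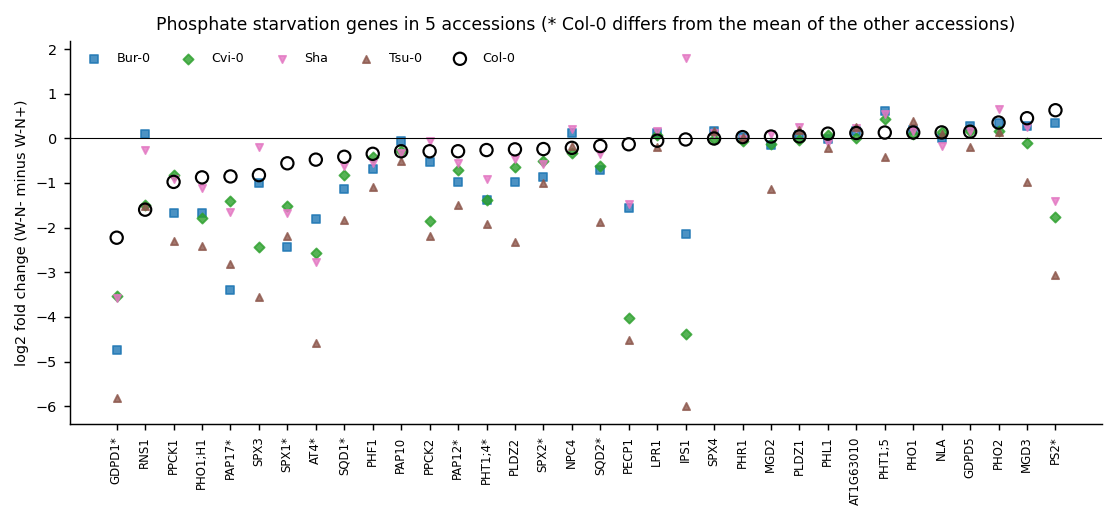
Log2 fold change (W-N- minus W-N+) of 34 phosphate starvation genes in Col-0 (open circles) and the other 4 accessions (filled symbols), ordered by the Col-0 value, with a star at the 10 genes whose Col-0 change differed from the mean of the others. GDPD1 lies at -2.23 in Col-0 and between -5.81 and -3.54 in the others.

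Other genes differed in either direction. AT4G01390 rose by 4.65 in Col-0 and by 2.27 in Bur-0, 1.65 in Cvi-0, 2.42 in Sha and 2.495 in Tsu-0 (difference 2.44, SE 0.33, adjusted p = 4.3e-07). GLN1;4, a cytosolic glutamine synthetase, was at 5.88, 7.02 and 7.55 CPM and at 7.78, 11.4 and 15.8 CPM in Col-0, where it changed by 0.72 (SE 0.25), against 4.22 in Bur-0, 2.09 in Cvi-0, 1.23 in Sha and 3.03 in Tsu-0 (difference -1.92, SE 0.28, adjusted p = 1.5e-06). AT1G58280, of the phosphoglycerate mutase family, was not called in Col-0 (0.20, SE 0.12) and had a mean change of -0.57 in the others (difference 0.76, SE 0.13). NIT4 rose less in Col-0 than the mean of the others (difference -1.099, SE 0.20, adjusted p = 4.8e-04). BASS5, which rose in Col-0, had a mean change of -0.07 in the others (difference 0.83, SE 0.18, adjusted p = 0.0059). Ribosomal proteins had medians of -0.54 in Col-0, -0.56 in Bur-0, -0.22 in Cvi-0, -0.47 in Sha and -0.41 in Tsu-0, and none of the 22 passed the test of a difference.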

How the data were processed

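Rosette RNA was prepared with RNeasy Plant Mini columns and made into TruSeq Stranded mRNA libraries, per the labels' protocols. Trimmomatic 0.36 and HISAT2 were used, per the submitters' processing notes. For the counting tool, strand setting and genome build, the record is: not given in the sources used here. Raw counts, whole numbers per gene, were deposited by the authors for 32833 genes, 4657 of them without a count anywhere. Reads of overlapping, antisense or near-identical genes cannot be assigned with certainty. Symbols, products and promoters came from RefSeq's annotation of TAIR10.1, which matched 32548 gene IDs.

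Every library of the series entered 1 quasi-likelihood model (edgeR 4.0.16, R 4.3.3) with terms for the 20 groups and the experiment code, TMM scaling and edgeR's filter on low counts, which left 20025 genes. Benjamini-Hochberg adjustment of p-values ran over all of them, and a gene was called below 0.05. The model was tested on simulated counts with the same spread for every gene and no effect of the code. That test therefore cannot vouch for the calls in these data. Every pair of libraries within either of the compared groups differed by more than sampling noise (lowest mean chi-square per gene 3.48). For principal components, a prior count of 2 was added before taking log2 CPM.

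The comparison and the 29 gene lists were chosen with earlier results of these data known, so no list is independent evidence of its direction. Of 597 listed genes, 567 were tested. The naming rule took the 12 largest rises and 12 largest falls (called, mean level 5 CPM or more, both codes of 1 sign), up to 4 members of each list by adjusted p, and, in each difference test, the 8 genes of lowest p whose level over the Col-0 libraries averaged 5 CPM or more. Further members are named to complete a list's calls, and were chosen after their values were seen. Their calls, and the main-comparison calls of genes named only for a difference test, were not checked over the alternatives and omissions below. Alternatives were RLE size factors, no filter, DESeq2 1.42.0, limma voom (limma 3.58.1), models of the Col-0 or the 12 libraries only, of either code, without the code or with a block for replicate letter, and omission of each library. A covariate for each library's trend with transcript length, and leaving out replicate f of the full-water control, were added after seeing the data.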

Additional observations from a re-analysis of the deposited data

Results flagged for a closer look

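In 12 of 286 groups of 6 libraries (143 named genes), 1 library stood apart by Dixon's criterion, which chance meets in about 1 in 20 groups. Under drought, NF-YA10 was high in replicate a (6.43 CPM), and UGT74B1 (119.3 CPM) and AT2G30766 (2.26 CPM) were low there. NIT4 (24.3 CPM) and GAMMA-VPE (143 CPM) were low in drought replicate e. Under combined stress, replicate e was high for AT2G47880 (6.21 CPM) and LTP3 (177 CPM) and low for AAP4 (66.6 CPM). AT5G02870, a ribosomal protein gene, was high in combined-stress replicate d (302 CPM), where FMO1 had its 1 level above 0 (0.0507 CPM). G3Pp1 was high in combined-stress replicate f (54.4 CPM), and SQD1 was low in combined-stress replicate b (72.7 CPM).

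The effect of less nitrate in dry soil differed between Col-0 and the mean of the other 4 accessions by the test of that difference. The log2 differences were 2.44 for AT4G01390, 1.46 for PAP17, 1.39 for SPX1, 0.84 for G3Pp1, 0.76 for AT1G58280, 0.72 for SQD2, 0.69 for SQD1 and -1.92 for GLN1;4. Between low and full water in Col-0 they were 3.14 for LTP3, -2.99 for BOR5, -2.31 for AT1G34060, -2.07 for F3'H, -1.85 for AT1G03495, -1.57 for GAMMA-VPE, -1.50 for NF-YA2 and -1.12 for AT1G15410.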

How the results depend on the processing

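The count of 2254 genes called was 4509 in a fit of the 12 libraries alone, 3934 with the length trend as a covariate, 905 in P3ID33 and 496 in P3ID34. For genes called higher (1103) these counts were 2272, 1873, 403 and 257, and for genes called lower (1151) they were 2237, 2061, 502 and 239. Omissions of 1 library gave 1699 to 2172, 753 to 1013 and 872 to 1159. The count against the other accessions (277) was 424 in DESeq2, 108 without the code, 22 in P3ID33, 115 in P3ID34, 1015 with the length trend and 128 to 261 over omissions. That between low and full water (1495) was 459 in P3ID33, 178 in P3ID34 and 1162 to 1573 over omissions. A code alone holds fewer libraries; the cause of the other shifts was not tested. RD29B, not called, reversed in P3ID34 alone (0.52). Without the code, 24 of 97 named calls ended, with adjusted p from 0.052 to 0.34: PCR1, ELIP2, PR2, GLN2, BCAT2, AT5G38710, AAP6, CYP707A2, AHG3, ABF3, SNRK2.3, RD20, SWEET12, PSBO2, PSBQ1, PSAH1, RCA, GGCT2;1, ARR16, PPH, PIP2;1, EXPA1, FRO3 and LTP1. Counts of higher or lower calls per list, 58 in all, moved by more than 1.5 times in 25 with the 12 libraries alone, 23 in P3ID33, 26 in P3ID34, 18 with the length trend, 14 without the code, 10 with the Col-0 libraries alone and 79 of 696 values over omissions of 1 library, and in 1 to 4 under each other setting. The replicate letters share only a letter: same-lettered libraries correlated from -0.14 to 0.32 in their deviations and only letter c matched itself best. With the replicate block LTP1 lost its call and the counts were 2244, 1102 higher, 1142 lower, 224 against the other accessions and 1458 between water supplies. Low counts limit genes such as NRT2.5 and FMO1.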

Other observations

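Gene families chosen from their annotation after values were seen gave further patterns, described by counts. Among all genes tested, 5.51% were called higher and 5.75% lower. Of 10 NF-YA subunit genes tested, 8 were called higher under combined stress and none lower (median log2 fold change 0.74), whereas of 17 NF-YB and NF-YC genes, which encode the partner subunits, none was called by edgeR (median -0.05). Besides NF-YA2 and NF-YA10, NF-YA5 rose by 1.17 (SE 0.22), NF-YA7 by 0.74 (SE 0.13), NF-YA8 by 0.74 (SE 0.15) and NF-YA6 by 0.69 (SE 0.12). Of 35 genes annotated as nodulin MtN21/EamA-like transporters, which take in the UMAMIT genes, 10 were called higher and none lower (median 0.27). UMAMIT14 was at 3.34 (SE 0.67) and UMAMIT19 at 2.78 (SE 0.77). Neither met the conditions set for the 12 largest rises, a mean of 5 CPM or more and 1 sign in both codes.

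Some families of protein synthesis held more genes called lower than higher. Of 51 translation initiation factors, 19 were called lower and none higher (median -0.24), among them EIF3A (-0.50, SE 0.11) and EIF3C (-0.45, SE 0.08). Of 50 aminoacyl-tRNA synthetases, 20 were called lower and 3 higher (median -0.23), and of 38 nucleolar and ribosome biogenesis genes, 12 were called lower and 1 higher (median -0.20). Of 19 elongation factors, 7 were called lower and none higher.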
